A study of Homo sapiens with 2 samples.

Results

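The 10 genes described here encode the cyclins CCND1, CCND2, CCND3, CCNE1, CCNE2, CCNA2, CCNB1, CCNB2, CCNF and CCNG2, chosen by name out of the 20323 genes in the deposited table. Cyclins are the regulatory partners of cyclin-dependent kinases (CDKs), and their transcripts and proteins come and go as a cell moves through its cycle. D-type cyclins carry growth signals into G1 through CDK4 and CDK6, E-type cyclins drive entry into S phase with CDK2, cyclin A2 acts in S phase and G2, and B-type cyclins with CDK1 bring the cell into mitosis. Cyclin F is the substrate-binding part of a ubiquitin ligase and binds no CDK, and cyclin G2 is an atypical cyclin linked to slowing of the cycle.

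Transcripts were measured by sequencing of polyadenylated RNA in MDA-MB-231 cells, a human triple-negative breast cancer line, given an siRNA against HNRNPF or a negative-control siRNA. HNRNPF encodes an RNA-binding protein of G-rich sequences with roles in splicing and polyadenylation. Each group had 1 library, which the table names si848 for the HNRNPF siRNA and siNC for the control, and the sources used here do not give the time after transfection. No difference below therefore has a replicate check or a p-value of its own, and each 95% interval covers counting error only.

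The HNRNPF siRNA library held 20134572 estimated counts and the control library 20654622. HNRNPF itself had 2451 counts in the HNRNPF siRNA library, against 6373 in the control library, which put it at 38.8% of its control level. The line's vimentin, CD44 and keratin transcripts were abundant in both libraries. ESR1 had 8 counts in the HNRNPF siRNA library and 3 in the control, PGR had none, and ERBB2 was at 19.9 FPKM after HNRNPF siRNA and 17.4 FPKM in the control. All 6 haematopoietic markers stayed below the minimum for expressed genes, which was 1 CPM (counts scaled to a library of 1e6) and 20 counts in the higher library, and their summed level was 0.17 FPKM in the HNRNPF siRNA library and 0.02 in the control. Of the 4 endothelial markers 2 passed, with a summed level of 1.17 FPKM in the HNRNPF siRNA library and 0.98 in the control. By counts these 2 were lower, PECAM1 with 70 after HNRNPF siRNA and 97 in the control and KDR with 17 after HNRNPF siRNA and 29 in the control, and VWF was at 0. Of the 6 fibroblast markers 2 passed, with a summed level of 6.48 FPKM in the HNRNPF siRNA library and 5.21 in the control, and COL1A2 was at 0. Of 3 markers of kidney or cervical lines PAX8 passed, with 56 counts and 1.72 FPKM after HNRNPF siRNA and 44 counts and 0.54 FPKM in the control, and PAX2 was at 0.

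Most of the cyclins were lower after HNRNPF siRNA, by margins well under 2-fold. CCND2 had no count, and the other 9 cyclins were expressed. Of these, 7 had a log2 ratio below 0, against 49.9% of the 12218 expressed genes. The counting interval lay below 0 for 6 of the 9 (24.5% of expressed genes) and above 0 for none (21.5%). At least 1.2-fold lower were 4 of the 9, CCNG2, CCNE2, CCND1 and CCNB1 (12.6% of expressed genes), although CCNB1 fell short of 1.2-fold by total counts, and none was at least 1.2-fold higher (14.8%). At 1.5-fold CCNG2 alone passed as lower (2.68%) and none as higher (3.40%), and CCNG2 lay just beyond that limit, with 0 cyclins past it when libraries were scaled by total counts or by FPKM. The median log2 ratio of the 9 was -0.24, beside 0.00 for all expressed genes. Earlier results of these data were known when the cyclins were chosen, so these counts and this median may partly restate that choice. Of the other 18 expressed cyclins, 9 were below 0 and 9 above. In bulk RNA, fewer cells in a phase of the cycle and less cyclin RNA per cell cannot be told apart.

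**Figure D1:**
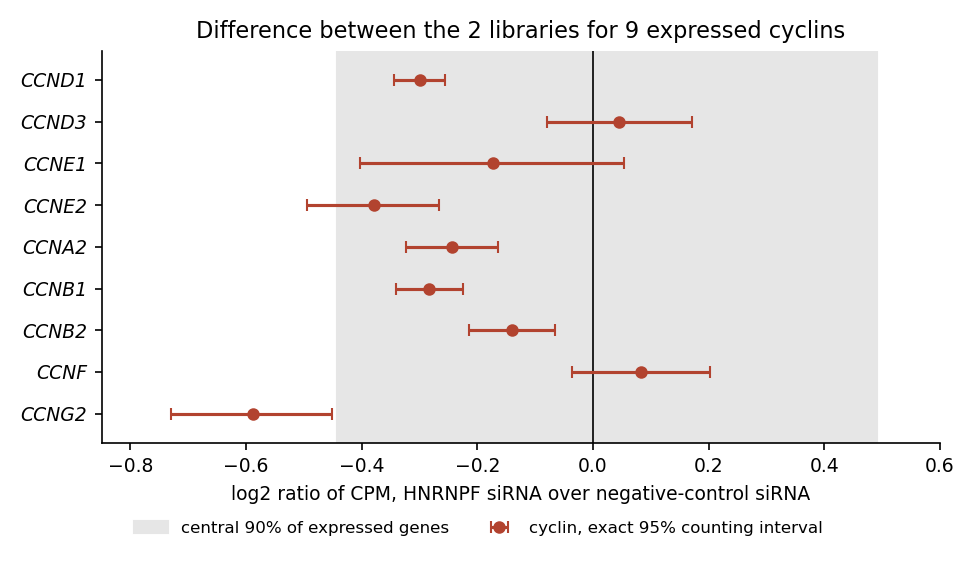
Log2 ratio of CPM for the 9 expressed cyclins, HNRNPF siRNA over negative-control siRNA, with 1 library per group. Points are the ratios, bars the exact 95% counting intervals, and the grey band the central 90% of all expressed genes, -0.44 to 0.49. CCNG2, at -0.59, is the cyclin outside the band, and CCND3 and CCNF lie above 0 with intervals that include it.

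The authors' FPKM, counts scaled to transcript length and library size, allow levels to be compared between genes. CCNB1 was the most abundant cyclin transcript, at 146 FPKM in the HNRNPF siRNA library and 176 FPKM in the control. CCND1 and CCNB2 followed, with CCND1 at 88.5 FPKM and CCNB2 at 91.6 FPKM in the HNRNPF siRNA library, against 107 FPKM for CCND1 and 99.1 FPKM for CCNB2 in the control. Their order thus differed between the libraries, and in the HNRNPF siRNA library their counting intervals overlapped. CCNA2 came after these in both, at 41.8 FPKM after HNRNPF siRNA and 48.7 FPKM in the control. CCND3, CCNE2 and CCNG2 came next, in that order after HNRNPF siRNA. In the control library CCNE2 stood above CCND3, and neighbours among those 3 had overlapping intervals. CCNF and CCNE1 were the lowest of the expressed cyclins in both libraries, and CCND2 was last.

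**Figure D2:**
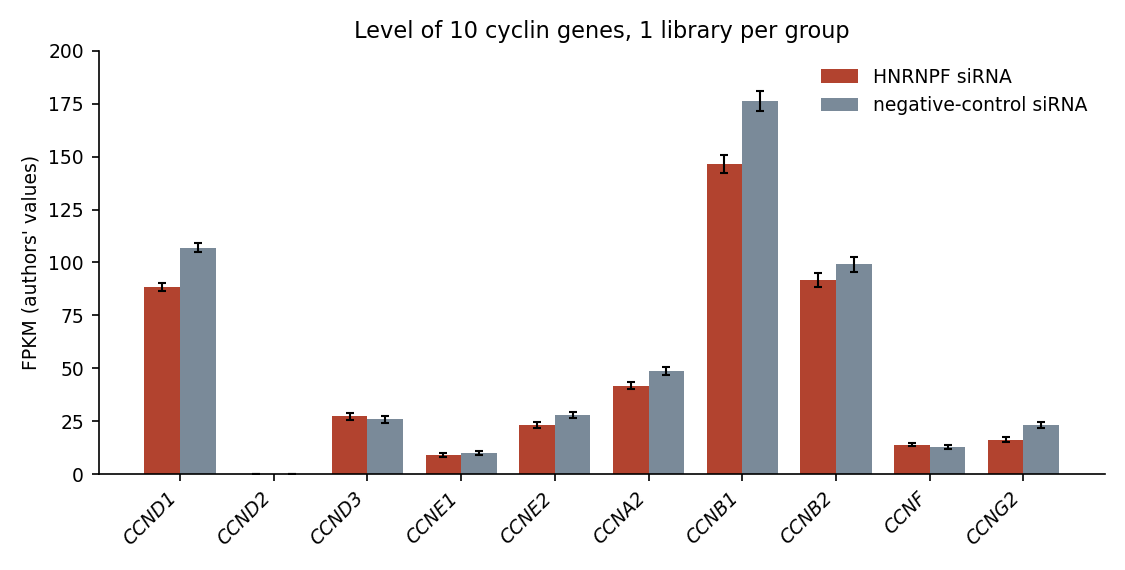
Level of each of the 10 cyclins in FPKM (linear axis from 0), HNRNPF siRNA library left and negative-control library right, 1 library each. Error bars are exact 95% Poisson intervals of the count, scaled to FPKM. CCNB1 is highest in both libraries, at 146 FPKM after HNRNPF siRNA and 176 FPKM in the control, and CCND2 is at 0 in both.

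Among the D-type cyclins CCND1 was lower after HNRNPF siRNA and CCND3 was not. CCND1 (ENSG00000110092, GRCh38 chromosome 11, 69641087 to 69654474, plus strand), the cyclin most often amplified in breast cancer, had 7548 counts in the HNRNPF siRNA library and 9364 in the control. Its log2 ratio was -0.30 (95% interval -0.34 to -0.26), or 81.2% of control. CCND3 (ENSG00000112576, chromosome 6, 41934933 to 42050357, minus strand), its close relative, had 1056 counts in the HNRNPF siRNA library and 1031 in the control, a log2 ratio of 0.05 (95% interval -0.08 to 0.17). The difference between the 2 log2 ratios, CCND1 minus CCND3, was -0.35 (exact conditional 95% interval -0.48 to -0.21), beyond counting error. CCND2 (ENSG00000118971, chromosome 12, 4273772 to 4305350, plus strand), the third D-type cyclin, had 0 counts in both libraries, which allows up to 3 counts or 0.148 CPM in the HNRNPF siRNA library and 0.147 CPM in the control. A second row of the table that carries the symbol CCND2, an overlapping gene, was at 0 as well. Together the D-type cyclins reached 116 FPKM in the HNRNPF siRNA library and 133 FPKM in the control, and CCND1 made up 76.4% of that sum after HNRNPF siRNA, against 80.5% in the control.

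The 3' untranslated regions (UTRs) were searched for the heptamer GGAAGAA, chosen because earlier results of these data had it often among the lower genes, and for the hexamer GAAGAA inside it, on the transcript strand. Of the 9 expressed cyclins CCND1 and CCNE2 carried the heptamer, 1 copy each, which is close to the 20.1% of the 11957 expressed genes with an annotated 3' UTR. CCND2, with no count, also carried 1 copy. CCNG2, the lowest cyclin, carried the hexamer alone, in 2 copies, and 42.8% of expressed genes carry at least 1. The authors' FPKM and counts imply a CCNG2 length of 2156 bases after HNRNPF siRNA and 2214 in the control. The transcript searched has 5526. For CCNE2 the implied lengths were 2351 after HNRNPF siRNA and 2484 in the control, and the transcript searched has 3330. Whether the measured RNA of these 2 genes held the sites is therefore not known. CCND3, CCNE1, CCNA2, CCNB1, CCNB2 and CCNF carried neither, so the lower CCNA2, CCNB1 and CCNB2 had no match. Genes with the heptamer have longer 3' UTRs, with a median of 2832 bases against 891 for the others, and the 3' UTRs of CCND1 (3192 bases) and CCNG2 (4135 bases) are among the long ones here. Carriers had a median log2 ratio of -0.08 and the other genes of 0.01. Since the heptamer was chosen from these same data, this difference is not an independent result. The sites are shown for CCND1, a lower cyclin with the heptamer, and for CCNG2, the lowest cyclin, which lacks it, printed from the GENCODE transcripts with the match in capitals. They lie at chr11:69652887-69652893, chr4:77166845-77166850 and chr4:77169563-77169568 on the plus strand, and start 1605, 921 and 3639 bases after the stop codon.
CCND1 heptamer site: aaaaacaatctGGAAGAAaaaaaccacac
CCNG2 hexamer site, nearer the stop codon: aagattgaatatGAAGAAcccgagtgttt
CCNG2 hexamer site, farther from it: tgaagtgcagcaGAAGAAatttagtatat

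Both E-type cyclins, which activate CDK2 at the start of S phase, had ratios below 0, but the counting interval of CCNE1 includes 0. CCNE2 (ENSG00000175305, chromosome 8, 94879770 to 94896678, minus strand) had 1099 counts in the HNRNPF siRNA library and 1441 in the control, a log2 ratio of -0.38 (95% interval -0.49 to -0.27), or 76.9% of control. CCNE1 (ENSG00000105173, chromosome 19, 29811898 to 29824308, plus strand) had 299 counts in the HNRNPF siRNA library and 340 in the control, a log2 ratio of -0.17 (95% interval -0.40 to 0.05). CCNE2 was thus not shown to be lowered more than CCNE1: the difference, CCNE2 minus CCNE1, was -0.21 (exact conditional 95% interval -0.46 to 0.05). Summed, the E-type cyclins were at 32.2 FPKM after HNRNPF siRNA and at 38.1 FPKM in the control, and CCNE2 made up 72.1% of that sum after HNRNPF siRNA and 73.7% in the control.

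CCNE2 gave a smaller difference by FPKM than by counts. Its log2 fold change in the authors' deposited table was -0.27, beside -0.38 from the counts. The length that the authors' FPKM and counts imply for it was 2351 bases in the HNRNPF siRNA library and 2484 in the control, a log2 ratio of -0.08, inside the central 90% of expressed genes (-0.20 to 0.18). The counts of CCNE2 are not whole, and 1629 bases of its exons overlap those of INTS8 on the opposite strand, which had a log2 ratio of -0.15. The sources used here do not say whether counting used strand, so reads in such an overlap cannot be assigned from these files. Counts of CCND1 and CCNA2 are not whole either. CCND1 shares 497 exon bases with LTO1 on the opposite strand (log2 ratio 0.28), and CCNA2 shares 254 with EXOSC9 (log2 ratio -0.25). Of the cyclins that were not lower, CCNF shares 527 and 219 exon bases with non-coding genes on the opposite strand. CCND3 shares 24 with another such gene. These non-coding genes have no value here, and the counts of CCNF and CCND3 are whole. The part of these overlaps in the cyclins' values was not tested.

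The cyclins of S phase, G2 and mitosis were lower together by a modest margin, while CCNF was not. CCNA2 (ENSG00000145386, chromosome 4, 121816444 to 121823933, minus strand), which partners CDK2 and then CDK1, had 2315 counts in the HNRNPF siRNA library and 2762 in the control. Its log2 ratio was -0.24 (95% interval -0.32 to -0.16). CCNB1 (ENSG00000134057, chromosome 5, 69167010 to 69178245, plus strand), the main mitotic partner of CDK1, had 4327 counts after HNRNPF siRNA and 5306 in the control, a log2 ratio of -0.28 (95% interval -0.34 to -0.22). CCNA2 and CCNB1 were not distinguished by counting error: the difference, CCNA2 minus CCNB1, was 0.04 (exact conditional 95% interval -0.06 to 0.14). CCNB2 (ENSG00000157456, chromosome 15, 59105078 to 59125045, plus strand), the B-type cyclin found at the Golgi, had 2766 counts after HNRNPF siRNA and 3070 in the control, a log2 ratio of -0.14 (95% interval -0.21 to -0.06). CCNB1 was lowered more than CCNB2, with a difference of -0.14 (exact conditional 95% interval -0.24 to -0.05). The B-type sum was 238 FPKM in the HNRNPF siRNA library and 275 FPKM in the control, 61.5% of it from CCNB1 after HNRNPF siRNA and 64.0% in the control.

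CCNF (ENSG00000162063, chromosome 16, 2429394 to 2458854, plus strand), whose protein marks its substrates for degradation in G2, had 1173 counts after HNRNPF siRNA and 1116 in the control. Its log2 ratio was 0.08 (95% interval -0.04 to 0.20), on the other side of 0 from CCNA2, CCNB1 and CCNB2, and it exceeded that of CCNB1 by 0.37 (exact conditional 95% interval 0.23 to 0.50). Of 7 known substrates of cyclin F, CCP110, a centriole cap protein, and NUSAP1, a spindle protein, were at -0.31 and -0.30. RRM2 and CDC6 were both at -0.07, with intervals below 0. SLBP (0.05), FZR1 (0.04) and EXO1 (0.01) had intervals that include 0. The median of the 7 was -0.07. These ratios are of RNA, and the substrate proteins, on which cyclin F acts, were not measured. NUSAP1 is also counted among the G2/M genes below, RRM2, CDC6 and SLBP among the G1/S genes, and FZR1 among the ubiquitin ligases.

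**Figure D3:**
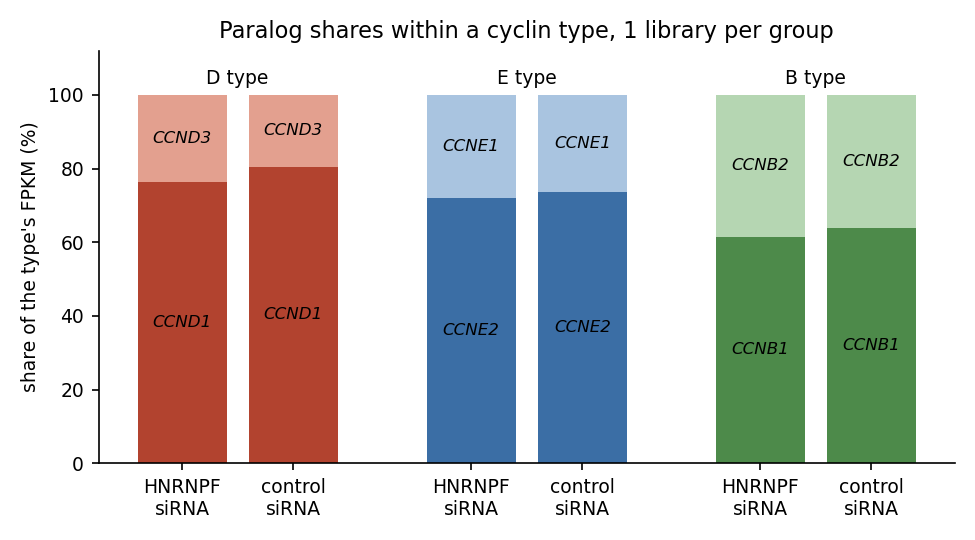
Share of each paralog in the summed FPKM of its cyclin type, in percent, HNRNPF siRNA library left and control library right within each pair, 1 library each. CCND1 holds 76.4% of the D type after HNRNPF siRNA and 80.5% in the control, CCNE2 72.1% and 73.7% of the E type, and CCNB1 61.5% and 64.0% of the B type. CCND2 is at 0 and has no segment.

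Promoters of late cell cycle genes are known for CCAAT boxes, bound by NF-Y, and for the cell cycle genes homology region (CHR), bound by the MuvB complexes with MYBL2 and FOXM1. RefSeq promoter sequences on GRCh38.p14, from 250 bases before to 50 after a gene's start, matched 7 of the 10 cyclins. CCND1, CCND2 and CCNE2 had no entry. Both strands were searched for CCAAT, for the CHR forms TTTGAA and TTCGAA, and for the E2F forms TTTCCCGC, TTTGGCGC and TTTCGCGC. Other forms of these elements and sites outside the window were not searched, so a promoter without a match may still hold the element. At least 1 CCAAT box occurs in 34.6% of the 35116 promoter sequences and 2 or more in 10.8%. The promoter of CCNA2 held 1, that of CCNB1 2, and those of CCNB2 and CCNF 4 each. TTTGAA, found in 15.2% of promoters, occurred in those of CCNB2 and CCNF, and TTCGAA, found in 1.45%, in that of CCNF. No E2F form was found in the 7; these letters occur in 1.63%, 0.652% and 0.515% of promoters. CCNE1 and CCNG2 held none of the letters searched, and CCND3 held a CCAAT box at 2 of its 3 start sites.

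The CCAAT box nearest the start site began 56 bases before it in CCNA2, 55 in CCNB1 and 54 in CCNB2. It began 106 bases before the start in CCNF and, at the third start site of CCND3, 64 bases before it. These distances depend on the RefSeq start sites. The GENCODE gene coordinates given above start at 2429394 for CCNF, after its box. They start at 69167010 for CCNB1 and 59105078 for CCNB2, which puts the boxes of these 2, and the TTTGAA of CCNB2, inside the gene. For CCNA2, on the minus strand, the gene starts at 121823933, close after its box. No background was computed for such distances, and their relation to the ratios was not tested. The windows are shown to set these boxes side by side, read along the gene's strand, with the box or the CHR form in capitals (CCAAT, or ATTGG where it lies on the other strand). The capitals lie at chr4:121823935-121823939, chr5:69167095-69167099, chr15:59105092-59105096 and chr16:2429341-2429345 for the boxes. For TTTGAA they lie at chr15:59105117-59105122 and chr16:2429362-2429367, 29 and 85 bases before the RefSeq start. CCNF carries both kinds of letters, as CCNB2 does, and its ratio was not below 0. A match describes the letters in this window and is not evidence of binding.
CCNA2 CCAAT box: gcgagcgctttcATTGGtccatttcaata
CCNB1 CCAAT box: gccacgaacaggCCAATaaggagggagca
CCNB2 CCAAT box: gcgcagggccgcCCAATggggcgcaagcg
CCNF CCAAT box: cccccgggcaggCCAATgggagggccggg
CCNB2 CHR form: agcgacgcggtaTTTGAAtcctggaacaa
CCNF CHR form: gggccgggtgcgTTTGAAaactggggtgg

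CCNG2 had the most negative ratio of the 9 cyclins. The gene (ENSG00000138764, chromosome 4, 77157151 to 77433388, plus strand) is known to be repressed by growth signals and induced by FOXO factors as cells leave the cycle. It had 706 counts in the HNRNPF siRNA library and 1071 in the control, and 16.3 FPKM in the HNRNPF siRNA library against 23.4 FPKM in the control. The log2 ratio was -0.59 (95% interval -0.73 to -0.45), or 66.5% of control, at percentile 2.65 of all expressed genes. It lay below that of CCNB1 by a difference of -0.31 (exact conditional 95% interval -0.46 to -0.16). Its paralog CCNG1, named here for that relation, had 3281 counts after HNRNPF siRNA and 3208 in the control (log2 ratio 0.04, 95% interval -0.03 to 0.11). CCNG2 minus CCNG1 was -0.63 (exact conditional 95% interval -0.79 to -0.48). The list of FOXO factors and their targets had 6 of 12 expressed members below 0, close to the 49.9% of all expressed genes, and a median of -0.03. The list includes the transcripts of the factors themselves, and the part of FOXO activity in the CCNG2 value was not tested. TXNIP, a brake on glucose uptake, was at 0.89, IRS2, the insulin receptor substrate, at 0.41 and SESN1 at -0.25.

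The authors' deposited table gave a false discovery rate below 0.05 for 6 of the 9 expressed cyclins, CCND1, CCNE2, CCNA2, CCNB1, CCNB2 and CCNG2, against 34.7% of expressed genes. The sources used here do not name the test behind it, and it rests on the same 1 library per group. These are the 6 genes whose counting intervals lay below 0.

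The remaining cyclins of the family lay on both sides of 0. Of 20, 18 were expressed, with 9 below 0 (49.9% of all expressed genes were), 9 above and a median log2 ratio of 0.00. CCNA1, the A-type cyclin best known from the testis, had the most negative ratio among those at 5 CPM and 50 counts, with 122 counts after HNRNPF siRNA and 234 in the control (log2 ratio -0.92, 95% interval -1.26 to -0.61). CCNC, a subunit of the Mediator kinase module, was at -0.36 (95% interval -0.46 to -0.26), and CCNH, which activates CDK7, at -0.26 (95% interval -0.38 to -0.13). Of the 18 counting intervals 6 lay below 0 and 1 above, beside 24.5% and 21.5% of expressed genes.

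Of the kinases that cyclins activate, CDK1 was lower with its partner cyclins. CDK1 had 2907 counts after HNRNPF siRNA and 3709 in the control, a log2 ratio of -0.34 (95% interval -0.41 to -0.27). CDK4 (-0.24, 95% interval -0.31 to -0.18) and CDK7 (-0.21, 95% interval -0.34 to -0.08) were lower as well, and CDK2 was at -0.05 with an interval that includes 0. CDK6, the alternative partner of D-type cyclins, was higher at 0.22 (95% interval 0.17 to 0.28). Among the CDK inhibitors CDKN1A, which encodes p21, was at -1.15 (95% interval -1.37 to -0.94), with 257 counts after HNRNPF siRNA and 576 in the control. CDKN2D (-0.27) and CDKN2C (-0.14) also had intervals below 0. Those of CDKN1B (0.10), which encodes p27, and CDKN1C (-0.05) include 0, and CDKN2A and CDKN2B were not expressed. The phosphatases and kinases that switch CDKs on or off differed little: WEE1, which inhibits CDK1, was at 0.15 (95% interval 0.04 to 0.27), and CDC25A (0.12), CDC25B (-0.04), CDC25C (-0.14) and PKMYT1 (-0.03) had intervals that include 0.

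Genes of G2 and mitosis, the phases of CCNA2 and CCNB1, were mostly lower. Of 30 G2/M genes 26 were below 0 and 22 had an interval below 0, beside 49.9% and 24.5% of expressed genes. Their median was -0.21, beside 0.00 for all expressed genes. The kinesin KIF20A was at -0.48, the spindle protein DLGAP5 at -0.41 and the proliferation marker MKI67 at -0.38. Among activators of mitotic genes MYBL2 had the most negative ratio, with 2690 counts after HNRNPF siRNA and 4893 in the control (log2 ratio -0.85, 95% interval -0.92 to -0.78). FOXM1 was at -0.26 and the MuvB subunits LIN54 and LIN9 at -0.27 and -0.19, all with intervals below 0, while LIN37 was at 0.39 (95% interval 0.04 to 0.76), LIN52 at 0.17 and RBBP4 at -0.06. Of 24 G1/S genes 16 were below 0 and 13 had an interval below 0, beside the same 49.9% and 24.5%, and the median was -0.07. MCM6 and GINS1 of the replicative helicase were both at -0.17, and the licensing factor CDT1 was at 0.30. Earlier results of these libraries were known when the G1/S and G2/M lists were chosen.

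**Figure D4:**
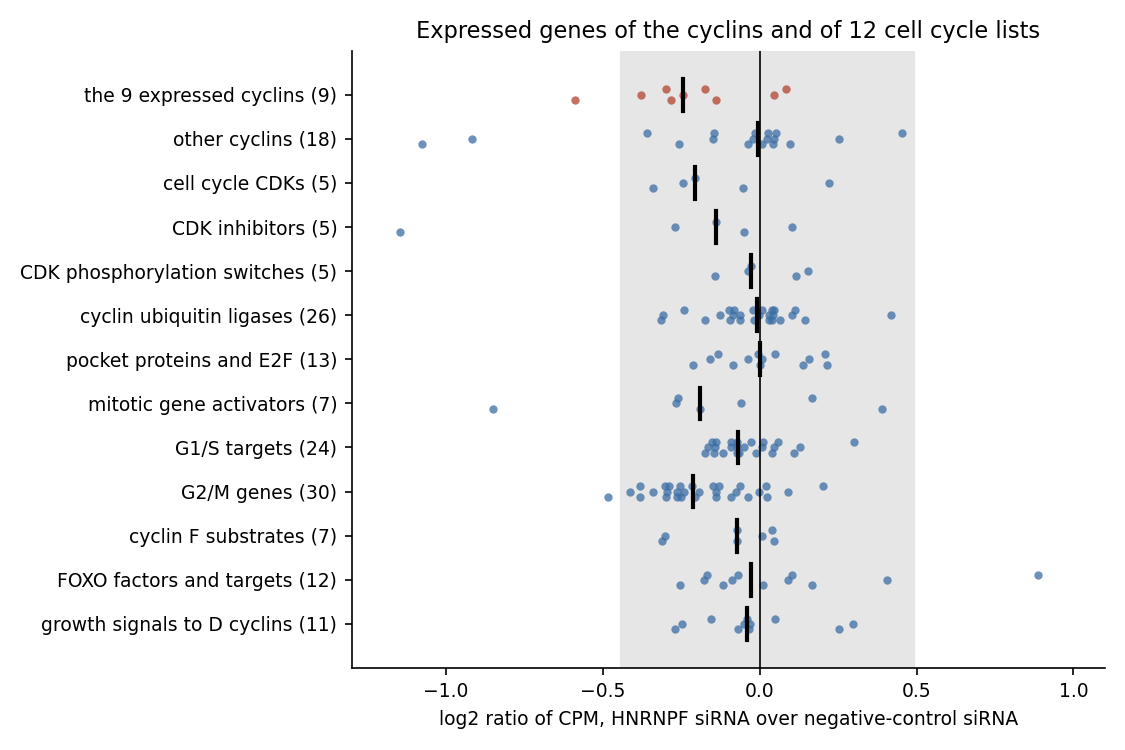
Log2 ratio of CPM, HNRNPF siRNA over control, for the 9 expressed cyclins and the expressed genes of 12 cell cycle lists, 1 library per group. Each point is a gene, black bars are medians, numbers in parentheses are genes, and the grey band is the central 90% of expressed genes. The medians are -0.24 for the 9 cyclins, -0.21 for the G2/M genes and -0.21 for the CDKs, and the pocket protein and E2F list lies at 0.00.

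The pocket protein and E2F genes and the ubiquitin ligases of cyclins lay on both sides of 0, in shares near that of all expressed genes (49.9% below 0). Of 13 pocket protein and E2F genes 6 were below 0 and 7 above (median 0.00), with E2F1 at 0.21, E2F2 at 0.21 and E2F6 at -0.21. Of 26 genes of the SCF, CUL4 and APC/C ubiquitin ligases that degrade cyclins 14 were below 0 and 12 above (median -0.01). Counting intervals lay below 0 for 3 of the 13 and 6 of the 26, beside 24.5% of expressed genes. They lay above 0 for 3 of the 13 and 2 of the 26, beside 21.5%. The APC/C subunits CDC23 (-0.32) and ANAPC10 (-0.31) were lower and ANAPC11 (0.42) was higher.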

How the data were processed

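The authors deposited estimated counts (expected counts, not scaled) and FPKM, 1 column per library, with a log2 fold change, p-value and false discovery rate, per the file headers. Listed in the submitters' processing notes, without roles, are RSEM, StringTie 1.3.1, HISAT2, fastp 0.18.0 and GRCh38. Not used were 2 further columns of per-library values and a column without a name. The columns named si848 were assigned to the HNRNPF siRNA, since the table's name sets the control against that siRNA.

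Counts were rounded and scaled by TMM (edgeR 4.0.16, R 4.3.3). Log2 ratios of CPM use a prior count of 2. Intervals are exact 95% Clopper-Pearson intervals of a count's share, and differences between cyclins have exact conditional intervals of the odds ratio (scipy 1.17.1). No test was possible with 1 library per group. Intervals cover counting error only and not variation between replicates, since each group has 1 library. Reads without molecular identifiers are not independent molecules, so the intervals may be too narrow even for counting error.

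Annotation was GENCODE 29 on GRCh38; 3' UTRs are those of the principal transcript with the longest 3' UTR. The cyclins and 12 gene lists were chosen with earlier results of these data known. From each list the 3 genes at 5 CPM and 50 counts with the largest absolute ratio are named, and all expressed genes of lists of 8 or fewer; CCNG1, INTS8, LTO1 and EXOSC9 were added later, and a gene that this rule selects is not reported here. With 2 libraries a gene's pattern is a lone ratio, so no likeness between genes was measured.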

Additional observations from a re-analysis of the deposited data

How the results depend on the processing

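The direction of the log2 ratio held for all 9 expressed cyclins under each of 6 alternatives (DESeq2 1.42.0 size factors, total counts, FPKM with a pseudocount of 0.1 or 1, a prior count of 0.5, and counts not rounded). CCNE2 was at -0.26 by FPKM with a pseudocount of 1, beyond its counting interval. FPKM also divides by a length, and the implied length of CCNE2 had a log2 ratio of -0.08 between the libraries. The cause of this difference in length was not tested. CCNG2 ranged from -0.60 to -0.50, so the number of cyclins at least 1.5-fold lower was 0 by total counts and by FPKM with a pseudocount of 0.1 or 1. By total counts 3 cyclins, not 4, were at least 1.2-fold lower. The mean log2 ratio of the 5 CDKs was -0.12, beside a median of -0.21. With counts divided by GENCODE transcript length in place of FPKM, CCND1 held 77.6% of the D type after HNRNPF siRNA and 81.5% in the control, CCNB1 52.9% of the B type after HNRNPF siRNA and 55.4% in the control, and CCNE2 69.3% of the E type after HNRNPF siRNA and 72.2% in the control, since the authors' lengths differ from those of GENCODE. No paired analysis was possible because each group has 1 library. Depth limits CCNE1, at 299 counts after HNRNPF siRNA and 340 in the control, most.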

Other observations

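Genes that carry growth signals to the D-type cyclins were mixed. Of 11 expressed genes 8 were below 0 and 3 above, where 49.9% of all expressed genes were below 0. The median log2 ratio was -0.04, beside 0.00 for all expressed genes. Counting intervals lay below 0 for 4 of the 11 and above 0 for 3, beside 24.5% and 21.5% of expressed genes. Of the 3 above 0, the transcription factor MYC was at 0.30 (95% interval 0.14 to 0.45), and the kinase MAPK3, also known as ERK1, at 0.25 (95% interval 0.09 to 0.42). CCND1 and MYC, both known targets of growth signalling, thus differed in direction in these libraries.

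At low counts CCNB3, a B-type cyclin best known from meiosis, had 22 counts in the HNRNPF siRNA library and 49 in the control. CCNO, a cyclin of multiciliated cells, had 89 counts after HNRNPF siRNA and 65 in the control. Both were chosen after their values were seen.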
